A study of Homo sapiens with 60 samples.

Results

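C5.2 is a human breast epithelial cell line that was made from the line HB4a by transfecting a full-length HER-2 (ERBB2) cDNA, and the question here was which RNAs differed between C5.2 cells given 30 nM doxorubicin and C5.2 cells given the vehicle, DMSO. The comparison used 10 of the 60 arrays of the study, 5 per group, and the arrays were chosen by their titles. The study measured RNA on Affymetrix arrays in HB4a, C5.2 and SKBR3 cells under vehicle, 30 nM doxorubicin, 20 nM rapamycin or both drugs, with 5 experiments per condition that the design text calls independent. Every group used below shared 1 medium, with serum, insulin and hydrocortisone. The source labels spell the line C5.2a, they do not say whether it is 1 clone, which promoter drives the cDNA, or how long the drug was present, and the vehicle arrays carry the title code DRC, which the source labels and the design text give to the vehicle and the treatment text to the drug pair. Experiments are numbered 1, 2, 3, 4 and 6 in both groups, so that each doxorubicin array was compared with the vehicle array of its own number, as 5 pairs.

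Doxorubicin is an anthracycline that slides between DNA bases and traps topoisomerase II on DNA with the strands broken. Broken DNA activates the kinases ATM and CHEK2 and stabilises p53, a transcription factor whose targets stop the cell cycle, repair DNA, start apoptosis and, through MDM2, restrain p53 itself. Cells also change their cell cycle genes: E2F factors drive the genes of DNA replication, and a later wave, controlled through promoter elements named CHR and CCAAT, drives the genes of G2 and mitosis.

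Values are log2 summaries of the signal of each probe set, so a difference of 1 is a 2-fold change. A gene was tested where its value passed 5 on at least 5 of the 10 arrays, which 5910 of 19775 genes did, and it was called where the Benjamini-Hochberg adjusted p of limma over all genes tested was under 0.05. The 10 array medians over all probe sets lay between 1.53 and 1.66. The doxorubicin array numbered 2 had the lowest mean correlation with the other arrays of its group, 0.959, against 0.972 to 0.984 for the other 9 arrays. ERBB2, the transfected gene, was at 12.06 ± 0.25 (SD, n = 5) in vehicle. Epithelial keratins were present (KRT7 up to 10.46 as a group mean), while none of 11 leukocyte markers and 1 of 10 endothelial markers (EGFL7, 5.50 in vehicle and 5.73 in doxorubicin) had a group mean above 5. In vehicle 11 of 20 luminal and 5 of 11 basal markers did. So did 16 of 22 matrix and mesenchymal markers, with VIM, vimentin, highest at 11.04.

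Doxorubicin raised 408 genes and lowered 333 of the 5910 tested, 741 in all (12.5%). Most changes were small: the median rise was 0.39, the median fall was -0.38, and 557 of the 741 were under 0.5. Among the 5910 tested, 15 called genes changed 2-fold or more, of which 14 rose and 1, the keratin gene KRT13, fell. With the filter at 3, where 9900 genes were tested, 48 called genes did, of which 46 rose and 2 fell. In 336 of the 408 rises and 264 of the 333 falls the change had the same sign in all 5 pairs, and among all genes tested 21.9% had that. The largest rises were in p53 targets; 13 of 33 tested genes of G2 and mitosis rose by smaller amounts, and 7 of 35 genes of origin licensing and the replication fork fell. Without the pairing 70 genes were called (1.18%), of which 59 rose (0.998%) and 11 fell (0.186%), and all 70 were among the 741. Their direction could not differ, because the fitted difference of a gene is the same with and without the pairing. Leaving out the pair numbered 2 gave 1034 calls (17.5%, with 12.1% up and 5.36% down), of which 657 were among the 741, and leaving out number 1, 3 or 6 gave 291, 346 and 361. The balance of directions rested on the scaling as well: after centring each array on its median 330 genes rose and 486 fell, so that 40.4% of calls were rises in place of 55.1%.

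**Figure D1:**
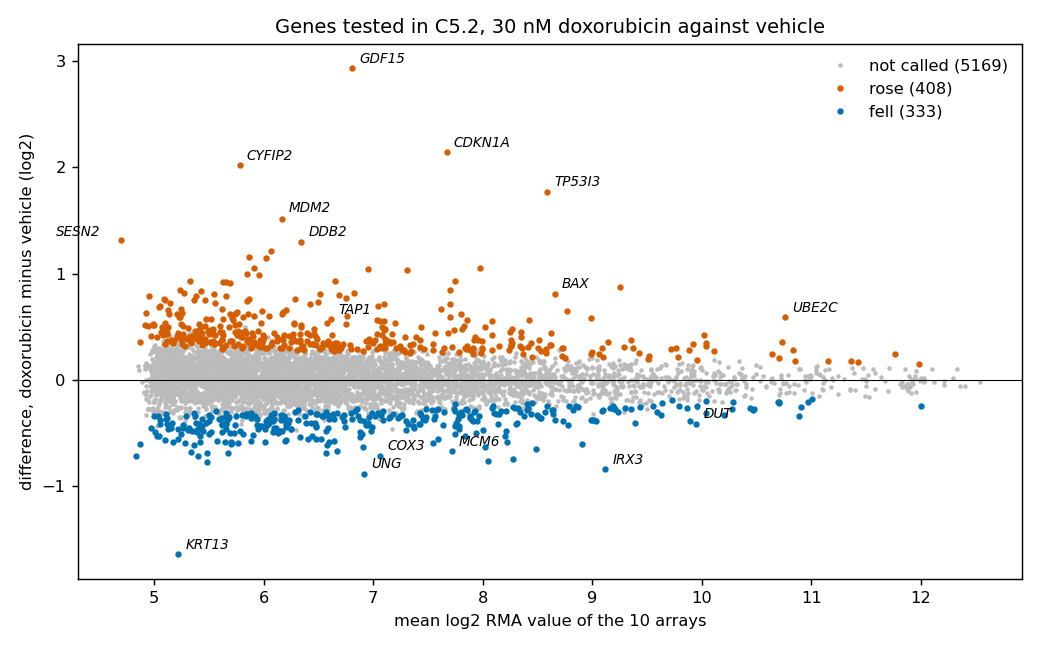
Each point is 1 of 5910 genes, with the mean log2 value of the 10 arrays on the x axis and the fitted difference between doxorubicin and vehicle (log2) on the y axis. Orange marks the 408 genes that rose, blue the 333 that fell and grey the 5169 that were not called. GDF15 (2.93), CDKN1A (2.14) and CYFIP2 (2.02) lie highest and KRT13 (-1.64) lowest.

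The p53 targets were followed with 5 lists that hold 73 genes, of which 65 had a value and 45 passed the filter. Of these 45, 34 rose (75.6%, against 6.9% of all genes tested), 0 fell and 11 were not called. The median difference of the 45 was 0.75, against 0.02 for all genes tested, and 19 of the 45 had groups that did not overlap (4.21% of all genes did). Without the pairing 19 of the 45 rose, and without number 2 the count was 35. The largest rise of any gene tested was that of GDF15, which encodes a secreted stress cytokine of the TGF-beta superfamily. In vehicle GDF15 was at 4.78, 5.30, 5.24, 5.27 and 6.16 in numbers 1, 2, 3, 4 and 6, and in doxorubicin at 7.95, 7.73, 8.51, 8.20 and 8.99. The lowest treated array was thus above the highest vehicle array, and the difference was 2.93 ± 0.11 (SE, adjusted p = 1.66e-10).

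Among the arrest genes, 8 of 9 tested rose, with a median of 0.64. CDKN1A encodes p21, the inhibitor of cyclin-dependent kinases that carries out much of the p53 arrest. Its values were 6.14, 6.61, 6.78, 6.47 and 6.99 in vehicle and 8.45, 8.02, 9.25, 8.76 and 9.22 in doxorubicin, with no overlap and a difference of 2.14 ± 0.12 (adjusted p = 3.14e-08). SESN2, a sestrin that restrains mTORC1, went from 3.89, 4.23, 3.94, 3.87 and 4.25 to 5.14, 5.05, 5.72, 5.2 and 5.68, a difference of 1.32 ± 0.13 (adjusted p = 1.19e-05). Every treated array was above every vehicle array for this gene, but no vehicle array passed 5, so that it entered the test through the treated group alone. E2F7, a repressor of E2F target genes, rose by 0.67 ± 0.12 (adjusted p = 0.00205, and 0.131 without the pairing), and its pair differences ranged from 0.13 in number 2 to 0.94 in number 4. GADD45A rose by 0.44 and SFN, which encodes 14-3-3 sigma, by 0.28, and neither call held without the pairing (adjusted p = 0.328 and 0.145). The exception was BTG1 at -0.11 ± 0.07, which was not called.

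The feedback genes rose in 6 of 8 cases, with a median of 0.86. MDM2, the ubiquitin ligase that degrades p53, was at 5.31, 5.14, 5.51, 5.29 and 5.80 in vehicle and at 6.46, 5.63, 7.80, 7.27 and 7.45 in doxorubicin. The groups overlapped through number 2, whose treated array lay below the highest vehicle array, and the pair differences ran from 0.49 in number 2 to 2.29 in number 3. The fitted difference was 1.51 ± 0.18 (adjusted p = 9.99e-05). PPM1D, the phosphatase WIP1 that switches the damage kinases off, rose by 0.91 ± 0.13 (adjusted p = 0.000427, and 0.068 without the pairing), with 0.26 in number 2. PHLDA3, an inhibitor of AKT, went from 4.86 ± 0.16 to 5.79 ± 0.21 (SD, n = 5 each) without overlap, a rise of 0.93. The MDM2 partner MDM4 was at 5.66 in both groups, with an SE of 0.13 on the difference.

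Of 12 genes of p53-dependent cell death that were tested, 10 rose, with a median of 0.80. CYFIP2, described as a p53-induced gene of apoptosis, was at 4.10, 4.74, 5.02, 4.83 and 5.14 in vehicle and 6.24, 5.65, 7.47, 7.13 and 7.46 in doxorubicin, a difference of 2.02 ± 0.17 (adjusted p = 3.27e-06). TP53I3, a quinone oxidoreductase linked to reactive oxygen, was at 7.41, 7.81, 7.76, 7.65 and 7.86 against 9.03, 8.91, 9.87, 9.63 and 9.89, a difference of 1.77 ± 0.11 (adjusted p = 1.83e-07). In both genes the groups were apart and the treated array numbered 2 was the lowest of its group. TNFRSF10B, the TRAIL receptor DR5, rose by 1.03 ± 0.12 from a mean of 6.80 to 7.82. AEN, an apoptosis-enhancing nuclease, rose by 1.05 ± 0.12 and TRIAP1, an inhibitor of apoptosome formation, by 0.93 ± 0.08. BAX, which opens the mitochondrial outer membrane, was at 8.02, 8.36, 8.24, 8.17 and 8.46 in vehicle and 8.84, 8.71, 9.33, 9.11 and 9.33 in doxorubicin. The BAX groups did not overlap, and the difference was 0.81 ± 0.09 (adjusted p = 5.54e-05). PMAIP1 (NOXA) was at 0.40 ± 0.13 and was not called (adjusted p = 0.0563), but its adjusted p was 0.00822 without number 2.

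The death receptor gene FAS was not tested, because too few arrays passed the filter. It was at 3.75, 2.99, 3.85, 2.99 and 3.51 in vehicle and 4.46, 3.85, 5.40, 4.43 and 4.65 in doxorubicin. To 2 decimals these groups touched at 3.85, where the highest vehicle array met the lowest treated one, and with a filter at 3 its adjusted p was 5.29e-05. CEACAM1, a cell adhesion molecule, was also too low to test, with 2.24, 2.17, 1.83, 2.13 and 2.97 in vehicle and 4.43, 4.06, 5.31, 4.87 and 5.58 in doxorubicin. Its groups were apart by more than 1 log2 unit. SESN1 went from a mean of 3.68 to 5.57 and TP53INP1 from 2.33 to 4.35, each with all 5 pairs higher and neither tested at the filter of 5.

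DNA repair targets of p53 rose in 4 of 6 cases. DDB2, which recognises ultraviolet damage in chromatin, was at 5.44, 5.95, 5.55, 5.61 and 5.90 in vehicle and 6.69, 6.81, 7.22, 6.95 and 7.27 in doxorubicin, a difference of 1.30 ± 0.11 (adjusted p = 2.62e-06). XPC, the first sensor of global nucleotide excision repair, rose by 1.04 ± 0.10 (adjusted p = 1.82e-05), and neither gene's groups overlapped. FBXO22, which encodes a ubiquitin ligase subunit, was the steadiest member, at 6.06 to 6.16 in vehicle and 6.75 to 7.08 in doxorubicin. PCNA, the sliding clamp of replication and a p53 target too, was at 9.41 in both groups, with an SE of 0.08. Genes of metabolism and autophagy rose in 6 of 10 cases: TIGAR, a fructose bisphosphatase, by 0.99 ± 0.13, CES2, a carboxylesterase, by 1.0 ± 0.12, FUCA1, a lysosomal fucosidase, by 0.77 ± 0.10, and DRAM1, a lysosomal membrane protein of autophagy, by 0.74 ± 0.11. SCO2, an assembly factor of cytochrome oxidase, was lower in all 5 pairs at -0.24 ± 0.09 and was not called (adjusted p = 0.0895).

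**Figure D2:**
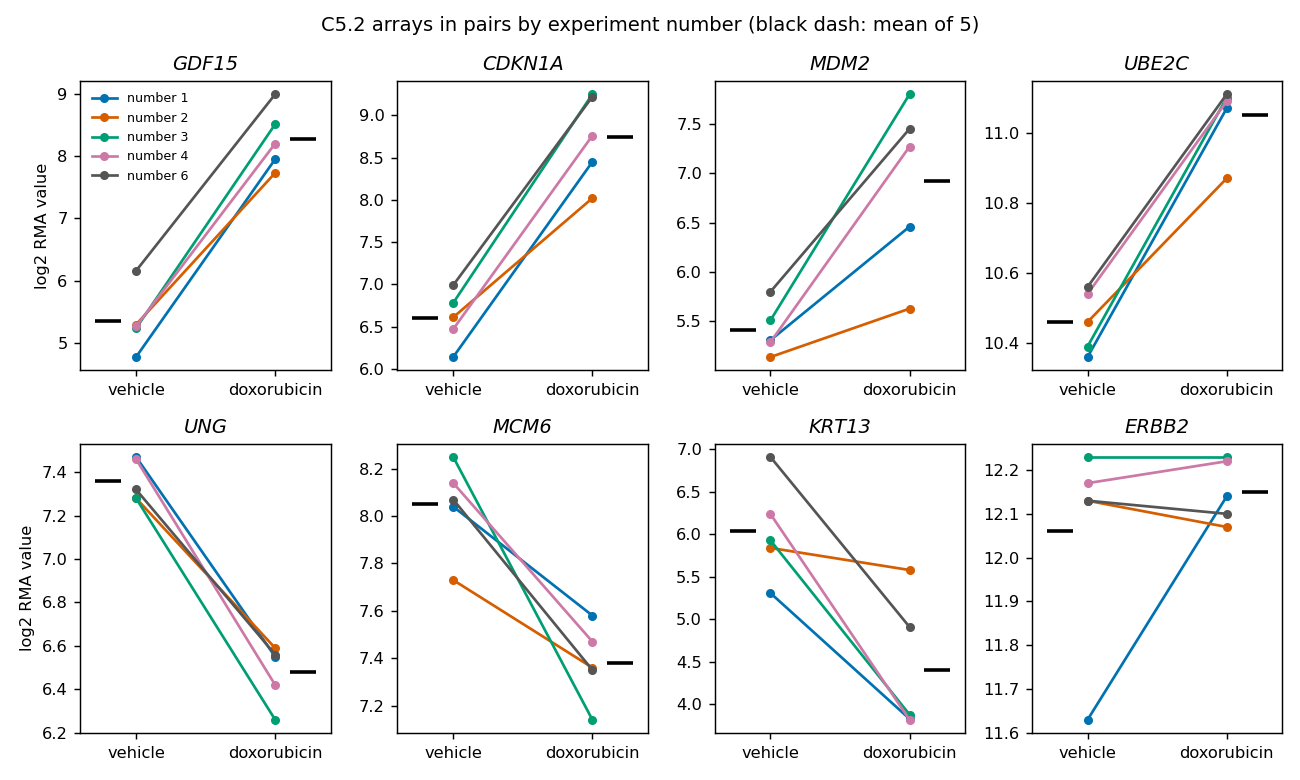
Log2 RMA values of 8 genes on the vehicle (left) and doxorubicin (right) array of each experiment, each panel on a scale of its own; a line joins 2 arrays of 1 number and black dashes are the means of 5. GDF15, CDKN1A, UBE2C, UNG and MCM6 have no overlap between the groups, MDM2 and KRT13 overlap through number 2 (orange), and ERBB2 differs mainly in number 1, whose vehicle array is at 11.63.

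The size of the response differed between pairs. The median pair difference over the 45 tested p53 list genes was 0.67 in number 1, 0.34 in number 2, 0.96 in number 3, 0.94 in number 4 and 0.79 in number 6, and over all genes it was 0.12, -0.08, 0.04, 0 and 0.03. Number 2 gave the smallest of the 5 differences in 307 of the 408 genes that rose. It was not the weakest in the genes that fell: there the smallest drop was in number 2 for 44 of 333 and in number 4 for 144, and the largest was in number 2 for 115. Among the 34 p53 list genes that rose, the vehicle array numbered 2 was the highest of its group for 5 (DDB2, at 5.95, and AEN, at 5.71, among them) and the lowest for 12 (MDM2, at 5.14, among them).

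**Figure D3:**
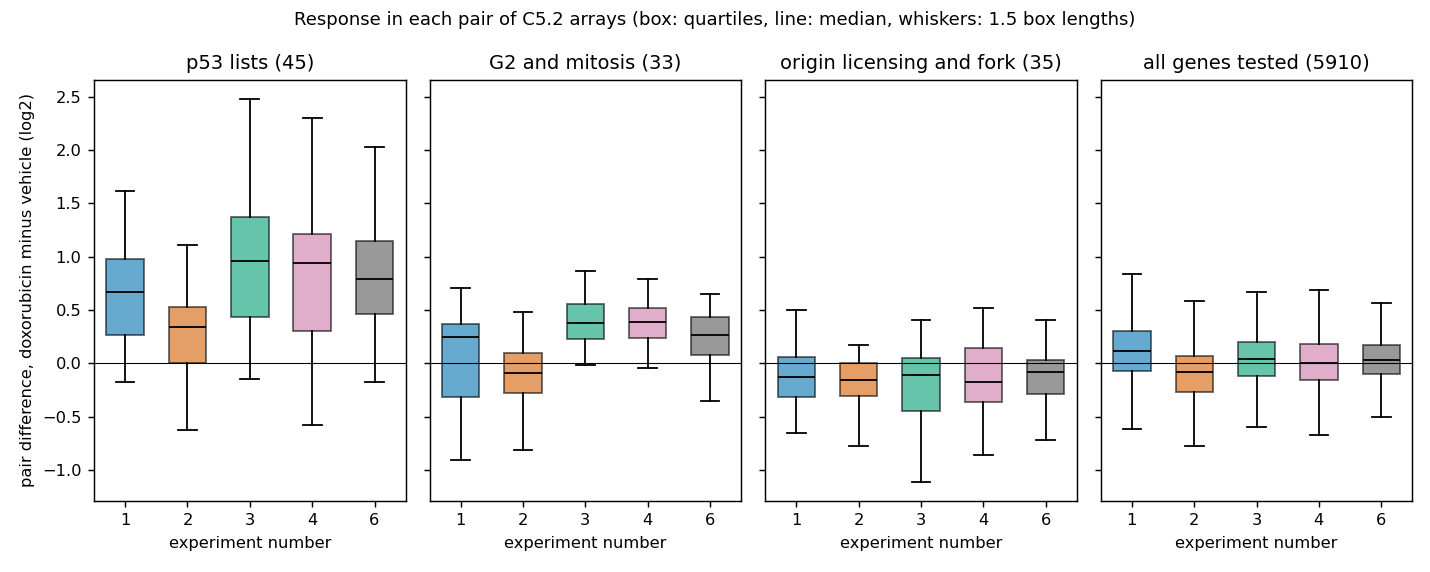
Box plots of the difference between the doxorubicin and vehicle array (log2) in each of the 5 numbered pairs, for tested members of the p53 lists (45), G2 and mitosis (33), origin licensing and replication fork (35) and all 5910 genes. The line is the median and the box spans the quartiles. The p53 median is lowest in number 2 (0.34), and the G2 and mitosis median is below 0 there alone (-0.09), while the licensing median is below 0 in all 5 pairs.

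Several genes in none of the lists rose as much as members of the p53 lists. Absence from the lists does not show that a gene is no p53 target, and this was not tested. SUGCT, a mitochondrial glutarate CoA-transferase, was at 5.04, 5.41, 5.84, 5.51 and 5.55 in vehicle and 6.0, 5.93, 7.38, 6.80 and 7.26 in doxorubicin, a difference of 1.21 ± 0.14 (adjusted p = 6.67e-05). EPS8L2, a regulator of actin, rose by 1.16 ± 0.12, TNFSF9, the ligand of the T cell receptor 4-1BB, by 1.15 ± 0.13, and SULF2, an extracellular heparan sulfatase, by 1.05 ± 0.12. In each of these 4 genes the groups did not overlap and the treated array numbered 2 was the lowest of its group. The single fall of 2-fold or more at the filter of 5 was that of KRT13, a keratin of stratified epithelia. It was at 5.31, 5.84, 5.93, 6.24 and 6.91 in vehicle and 3.83, 5.58, 3.88, 3.82 and 4.91 in doxorubicin. Its treated array numbered 2 stayed within the vehicle range, with a pair difference of -0.26 against -1.48 to -2.41 in the other pairs, and the fitted difference was -1.64 ± 0.21 (adjusted p = 0.000201). Bulk RNA cannot tell fewer cells that hold a transcript from less of it in each cell.

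Most of the remaining large falls were close in size. IRX3, a homeobox transcription factor, fell almost equally in every pair, from 9.20, 9.30, 9.75, 9.52 and 9.91 to 8.29, 8.45, 8.93, 8.73 and 9.09. The groups were apart and the difference was -0.84 ± 0.06 (adjusted p = 6.28e-07). GAS1, a membrane protein first found in growth-arrested cells, fell by 0.64 to 0.82 in each pair, although its groups overlapped because the levels of the experiments differed, and its adjusted p went from 1.1e-05 to 0.202 without the pairing. The epithelial sodium channel subunit SCNN1G (-0.77), the WAVE complex subunit NCKAP1 (-0.76), the Notch target HES1 (-0.69) and the matrix protein thrombospondin 1 (THBS1, -0.65) also fell in all 5 pairs. Of these 4, NCKAP1 was called without the pairing (adjusted p = 0.0484), and SCNN1G (0.131), HES1 (0.145) and THBS1 (0.262) were not. The 2 other THBS1 probe sets over the filter were at -0.20 and -0.02, so the size of its fall rests on 1 probe set. The PI3-kinase regulatory subunit PIK3R1 fell by 0.68 ± 0.12 (adjusted p = 0.00187, and 0.0946 without the pairing).

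**Figure D4:**
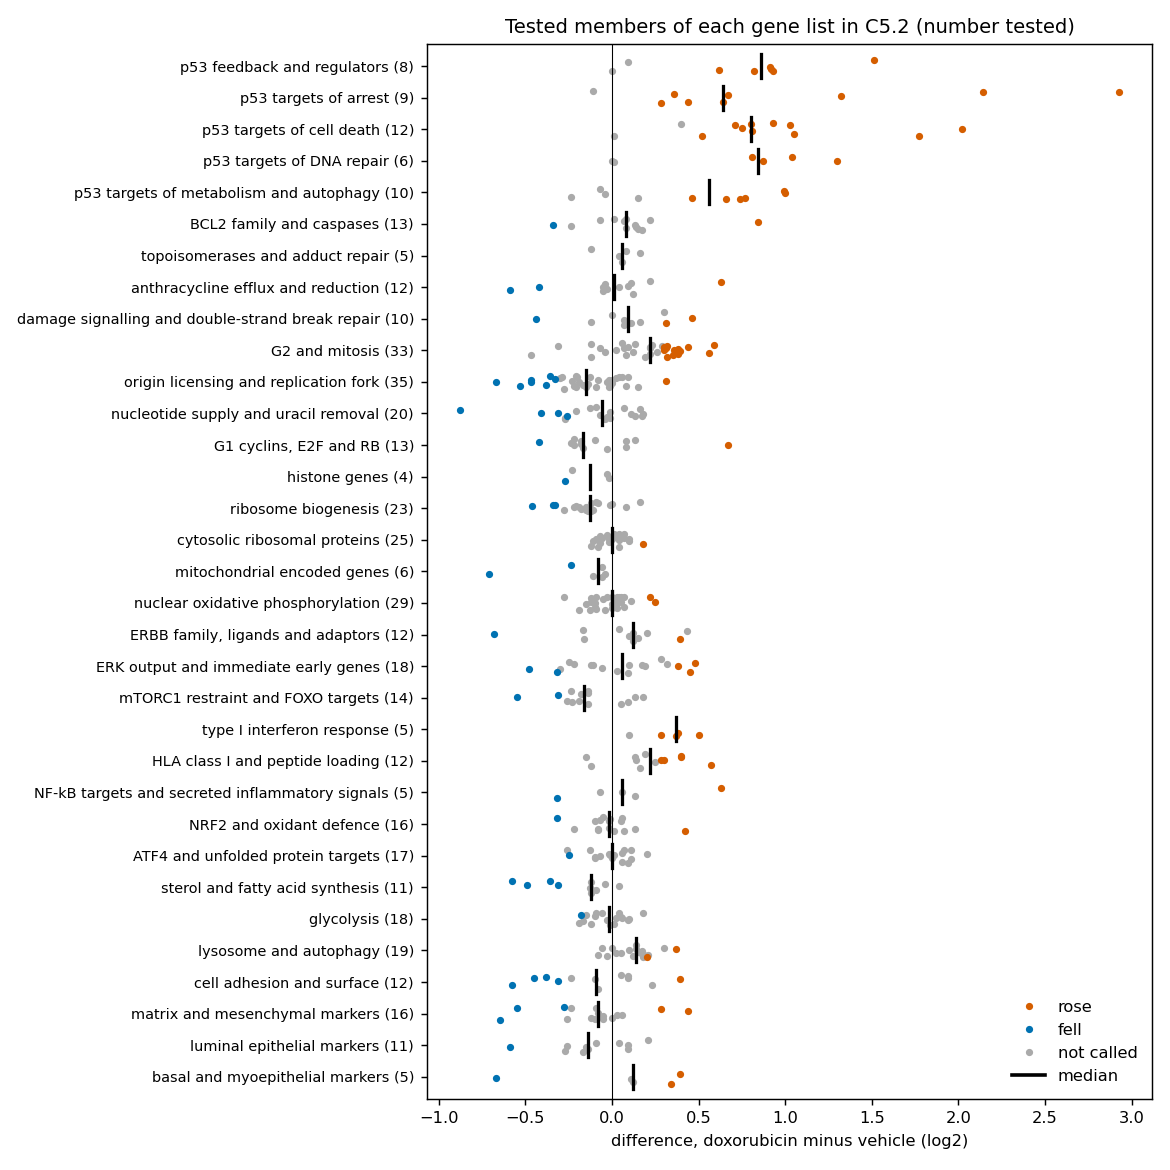
Differences between doxorubicin and vehicle (log2, x axis) of the tested members of 33 gene lists with at least 4 of them, 1 list per line with its number tested. Orange points rose, blue points fell, grey points were not called, and the black bar is the list median. The 5 p53 lists have medians of 0.56 to 0.86, and the other lists drawn have medians between -0.17 and 0.37. A list of HB4a genes kept to check the labels, with 4 tested and a median of -0.25, is not drawn.

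Of 33 tested genes of G2 and mitosis, 13 rose, 0 fell and 20 were not called, with a median of 0.22, where 6.9% of all genes tested rose. The count was 5 without the pairing, 17 without number 2, and 6 without number 1, number 3 or number 6. UBE2C, the ubiquitin-conjugating enzyme of the anaphase-promoting complex, was at 10.36, 10.46, 10.39, 10.54 and 10.56 in vehicle and 11.07, 10.87, 11.10, 11.09 and 11.11 in doxorubicin. Its groups did not overlap, and the difference was 0.59 ± 0.05 (adjusted p = 9.26e-06). KIF2C, a kinesin that takes microtubules apart at kinetochores, was at 8.26, 8.33, 7.90, 8.11 and 8.11 against 8.83, 8.52, 8.64, 8.77 and 8.74, a difference of 0.56 ± 0.08 (adjusted p = 0.000535), again without overlap. CCNB2, cyclin B2, rose by 0.38 ± 0.07 and PTTG1, securin, by 0.36 ± 0.07, and both were called without the pairing. CENPA, the histone variant of the centromere, rose by 0.39 ± 0.09 (adjusted p = 0.0109), a call that was lost without number 6 and without the pairing (0.135). Several central members did not pass: CCNB1 was at 0.09 ± 0.06, CDK1 at 0.29 ± 0.13, CCNA2 at -0.12 ± 0.14 and ANLN at -0.47 ± 0.17. In numbers 3 and 4, 31 of the 33 were higher in doxorubicin, and in number 2, 13 were.

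Of 35 tested genes of origin licensing and the replication fork, 7 fell (5.63% of all genes tested did) and 1, the DNA ligase gene LIG1, rose by 0.31 ± 0.09, a call that was lost without number 1, 3 or 6, without the pairing and after array median centring. The list median was -0.15, and after centring each array on its median or after quantile normalization it was -0.20. Without the pairing 1 of the 35 fell, without number 2 the count was 10, and without number 3 or number 6 it was 4 and 3. MCM6, a subunit of the MCM helicase that opens replication origins, was at 8.04, 7.73, 8.25, 8.14 and 8.07 in vehicle and 7.58, 7.36, 7.14, 7.47 and 7.35 in doxorubicin. The groups were apart, and the difference was -0.67 ± 0.10 (adjusted p = 0.000515). Its partner MCM5 fell by 0.53 ± 0.09 and GINS2, part of the complex that joins MCM to CDC45, by 0.47 ± 0.08, and these adjusted p rose to 0.115 and 0.0983 without the pairing. MCM2, MCM3 and MCM7 fell by 0.36, 0.38 and 0.33, whereas MCM4 was at -0.21 ± 0.13 and was not called. CDC45 (-0.02), ORC1 (-0.02), GINS1 (-0.03), PCNA (0.00) and RPA1 (0.04) were not called, each with an SE of 0.09 or less.

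Enzymes that keep uracil out of DNA fell with them. UNG, the uracil-DNA glycosylase, was at 7.47, 7.28, 7.28, 7.46 and 7.32 in vehicle and 6.55, 6.59, 6.26, 6.42 and 6.56 in doxorubicin. This was the second largest fall of any gene tested, -0.88 ± 0.09 (adjusted p = 1.29e-05) and the groups did not overlap. DUT, the dUTPase that removes the precursor of misincorporated uracil, was at 10.25, 10.18, 10.15, 10.09 and 10.10 against 9.80, 9.76, 9.69, 9.81 and 9.68, a fall of 0.41 ± 0.06 (adjusted p = 0.000322). Both calls held without the pairing. Of the 20 nucleotide supply genes tested, 4 fell in all (5.63% of all genes tested did). The others were GART and MTHFD1, enzymes of purine and folate metabolism, whose calls were both lost without number 3 and without number 6.

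Promoters are shown for genes called in opposite directions in these lists. RefSeq promoters (GRCh38.p14, 250 bases before to 50 after the start) matched 4982 of the 5910 tested genes and were searched on both strands. The E2F letters searched were TTTCCCGC and TTTGGCGC, the CHR letters TTTGAA and the CCAAT letters CCAAT. E2F letters stood in 4 of 10 promoters of replication and nucleotide genes that fell (40%), in 14 of 48 of those tested (29.2%) and in 4.58% of all tested. CHR letters stood in 6 of 11 promoters of G2 and mitosis genes that rose (54.5%), in 18 of 28 of those tested (64.3%) and in 8.87% of all tested. CCAAT letters stood in 72.7% of the G2 and mitosis genes that rose and 82.1% of those tested, in 80% of the replication and nucleotide genes that fell and 54.2% of those tested, and in 38% of all. These matches are a description of the letters in these windows. The p53 half-site was found in 3 of 29 promoters of p53 list genes that rose (10.3%) and in 4.7% of all tested. It stood in 3 of 10 of the replication and nucleotide genes that fell (30%) and in 5 of 48 of those tested (10.4%). A pair of half-sites at most 13 bases apart was found in 0 of the 4982 promoters. Sites outside these windows were not searched. The stretch just before the start is given 5′ to 3′ on the gene's strand, with all E2F, CHR and CCAAT letters in capitals, for MCM6 and GINS2, which fell, at chr2:135876444-135876693 (minus strand) and chr16:85688955-85689204 (minus strand), and for CENPA, which rose, at chr2:26785806-26786055 (plus strand).
MCM6: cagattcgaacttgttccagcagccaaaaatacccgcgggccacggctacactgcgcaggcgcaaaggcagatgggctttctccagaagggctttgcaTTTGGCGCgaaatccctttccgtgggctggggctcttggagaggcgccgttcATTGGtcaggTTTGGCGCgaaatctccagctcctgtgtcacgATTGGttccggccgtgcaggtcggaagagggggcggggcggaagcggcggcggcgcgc
GINS2: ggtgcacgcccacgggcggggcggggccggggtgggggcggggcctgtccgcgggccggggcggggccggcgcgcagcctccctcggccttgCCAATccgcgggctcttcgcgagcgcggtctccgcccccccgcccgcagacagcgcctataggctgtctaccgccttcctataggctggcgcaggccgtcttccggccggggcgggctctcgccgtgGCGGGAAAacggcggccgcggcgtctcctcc
CENPA: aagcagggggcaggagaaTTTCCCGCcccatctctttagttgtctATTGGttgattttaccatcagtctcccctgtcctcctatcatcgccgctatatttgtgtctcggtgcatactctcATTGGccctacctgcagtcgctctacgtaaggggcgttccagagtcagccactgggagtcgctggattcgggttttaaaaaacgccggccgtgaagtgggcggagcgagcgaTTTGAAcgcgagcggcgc
Counted from the start, E2F letters begin at -152 and -90 in MCM6, at -31 in GINS2 and at -232 in CENPA, so that the gene that rose holds them too. CCAAT letters begin at -100 and -58 in MCM6, at -158 in GINS2 and at -205 and -130 in CENPA, and CHR letters stand in CENPA alone of these 3, at -18. These 3 were chosen for holding matches: the windows of UNG and DUT, which fell, hold no E2F letters, and those of KIF2C and CDC25C, which rose, hold none of the 3 kinds.

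The topoisomerase genes had no call. The list of anthracycline efflux and reduction had 3 among 12 tested, where 6.9% of all genes tested rose and 5.63% fell. TOP2A, the topoisomerase II of dividing cells, was at 6.22 ± 0.33 in vehicle and 6.28 ± 0.44 in doxorubicin (SD, n = 5), with a 95% interval of the difference from -0.27 to 0.39. TOP1 was at 0.08 ± 0.10, TOP2B was too low to test (group means of 4.76 and 4.54), and 0 of 5 tested genes of the topoisomerase list were called by limma, with 0 at an unadjusted p under 0.05. ABCB1, the efflux pump P-glycoprotein, was at or under 0.40 on all 10 arrays and was not tested, and the pump ABCC1 was at 0.04 ± 0.10. The pump ABCG2 fell by 0.59 ± 0.09 (adjusted p = 0.00111), from 6.06, 5.71, 6.07, 6.06 and 6.15 to 5.53, 5.26, 5.23, 5.48 and 5.60. These groups did not overlap. AKR1C3, an aldo-keto reductase, fell by 0.42 ± 0.10 (adjusted p = 0.0152, and 0.467 without the pairing). AKR1B10, another aldo-keto reductase that can reduce anthracyclines, rose by 0.63 ± 0.14, with 0.18 in number 1, 0.09 in number 2 and 0.85 to 1.10 in the others (adjusted p = 0.00969, and 0.281 without the pairing).

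ERBB2, the transfected gene, was not called, and its list had 1 rise and 1 fall among 12 tested genes. ERBB2 was at 11.63, 12.13, 12.23, 12.17 and 12.13 in vehicle and 12.14, 12.07, 12.23, 12.22 and 12.10 in doxorubicin, a difference of 0.10 ± 0.07 that was not called (adjusted p = 0.36). The other ERBB2 probe set over the filter was at -0.39, so the probe sets disagreed in sign. Apart from the vehicle array numbered 1, all arrays lay within 12.07 to 12.23, and without that number the difference was -0.01. EGFR was at 0.12 ± 0.10. Of 12 tested genes of the ERBB family, its ligands and adaptors, HBEGF rose by 0.39 and PIK3R1 fell. Neither was called without the pairing, and the HBEGF call was lost without number 1, 3 or 6. Among 18 genes of ERK output, 3 rose (EGR1, ETV5 and KLF4) and 2 fell (MYC and PHLDA1). Of all genes tested, 6.9% rose and 5.63% fell. MYC was at 8.38, 8.43, 8.17, 8.80 and 8.49 in vehicle and 8.29, 8.44, 7.41, 7.87 and 7.87 in doxorubicin. Numbers 1 and 2 hardly differed, so that the fall of 0.48 ± 0.12 (adjusted p = 0.0147) came from numbers 3, 4 and 6, and the call was lost without number 3, without number 4 and without the pairing (0.2).

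The BCL2 family and caspase list had 1 rise and 1 fall among 13 tested, where 6.9% of all genes tested rose and 5.63% fell. The rise was that of BIK, a BH3-only killer protein, by 0.84 ± 0.12 (adjusted p = 0.000388), and the fall that of CYCS, cytochrome c, by 0.34 ± 0.08, which was not called without the pairing (adjusted p = 0.251). In the list of damage signalling and double-strand break repair, 2 of 10 rose and 1 fell. The kinase CHEK2 rose by 0.31 ± 0.09, the recombination gene RAD51C by 0.46 ± 0.12, and PRKDC, the catalytic subunit of the end-joining kinase, fell by 0.44 ± 0.09. None of these 3 was called without the pairing, and the CHEK2 call was lost without number 1, 2, 3 or 6.

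Some antigen presentation and interferon genes were higher by small amounts. Of 12 tested genes of HLA class I and peptide loading 5 rose and 0 fell (6.9% of all genes tested rose), with a median of 0.22, and after centring each array on its median 3 rose. TAP1, the peptide transporter of the endoplasmic reticulum, was at 6.22, 6.52, 6.32, 6.25 and 6.32 in vehicle and 6.79, 6.78, 7.21, 6.73 and 6.99 in doxorubicin, without overlap, a rise of 0.57 ± 0.10 (adjusted p = 0.00153). The immunoproteasome subunits PSMB8 and PSMB9 each rose by 0.40 ± 0.10 and HLA-B by 0.30 ± 0.09. Only TAP1 was called without the pairing, and without number 1, 3 or 6 the count of 5 became 2, 1 and 1. Of 26 interferon genes with a value only 5 passed the filter, so most of that list was too low to test. Of these 5 tested interferon genes 4 rose, led by IFI6 at 0.50 ± 0.11 (adjusted p = 0.00695), with 0.05 in number 2. None of the 4 was called without the pairing, 3 were called after array median centring, and without number 1, 3 or 6 the count was 1, 1 and 2. HLA genes resemble one another, and probes of 1 can pick up another.

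Among epithelial markers the calls were few and went both ways. Of 11 luminal markers tested KRT19 fell and none rose (5 fell without number 2), and of 5 basal markers KRT5 fell while CDH3, P-cadherin, and LAMB3, a laminin chain, rose by 0.39 ± 0.11 and 0.34 ± 0.09. No call in either list held without the pairing, and both rises were lost without number 1, 3 or 6. KRT19 fell by 0.59 ± 0.11 (adjusted p = 0.00385), from 7.57, 7.46, 7.69, 7.90 and 8.58 to 6.82, 7.49, 7.08, 6.89 and 7.98. KRT5 fell by 0.67 ± 0.16 (adjusted p = 0.0139), from 6.57, 6.57, 6.98, 7.14 and 7.77 to 6.06, 6.83, 5.95, 5.78 and 7.04. In number 2 both keratins were slightly higher in doxorubicin, and in the other 4 pairs both were lower; the KRT5 call was lost without number 1 and without number 4, and neither was called without the pairing (adjusted p = 0.251 and 0.248). The summed level of 20 luminal markers was 94.2 to 102.0 in vehicle and 93.3 to 100.7 in doxorubicin, and that of 11 basal markers was 43.9 to 50.7 and 43.9 to 48.7. Of 12 adhesion genes 4 fell, led by ALCAM (-0.58 ± 0.10) and EPCAM (-0.45 ± 0.11), and 1, CDH3, rose. Of all genes tested, 5.63% fell and 6.9% rose. The counts of the adhesion list were 0 without the pairing.

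Several large classes hardly moved, where 6.9% of all genes tested rose and 5.63% fell. Of 25 cytosolic ribosomal protein genes 1 rose, of 29 nuclear genes of oxidative phosphorylation 2 rose, of 18 glycolysis genes 1 fell, and of 17 ATF4 and unfolded protein targets 1 fell, with list medians between -0.02 and 0. After centring each array on its median the oxidative phosphorylation list had 0 rises and 2 falls in place of 2 rises. Among 6 tested genes encoded by mitochondrial DNA, COX3 fell from 7.16, 7.48, 7.78, 7.33 and 7.34 to 6.74, 6.47, 6.80, 6.66 and 6.87, a difference of -0.71 ± 0.10 (adjusted p = 0.000381) with no overlap. The other fall in that list was ATP6, by 0.24, and its call was lost without number 4. The list median was -0.08. No other COX3 probe set passed the filter, and its vehicle mean was 7.42, against 12.12 for ATP6. Whether the COX3 probe set reads other sequences was not tested. The sterol and fatty acid list moved more, with 4 falls among 11, led by the desaturase SCD. SCD was at -0.58 ± 0.09 (adjusted p = 0.00132, and 0.068 without the pairing), and its other probe set over the filter was at -0.24. Of 23 ribosome biogenesis genes 3 fell and 0 rose, with a median of -0.13, and none of the 3 was called without the pairing. GPX1, glutathione peroxidase, was the 1 of 16 oxidant defence genes that rose, from 9.76, 10.02, 9.67, 9.77 and 9.85 to 10.17, 10.28, 10.26, 10.14 and 10.31, a difference of 0.42 ± 0.06 (adjusted p = 0.000385).

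Gene length differed slightly between the directions. The median span of a gene from start to end was 25.7 kb for all tested, 20 kb for those that rose and 28.8 kb for those that fell. From the shortest to the longest of 5 equal groups of genes the share that rose was 9.21%, 6.6%, 7.95%, 6.01% and 4.74%. The share that fell was 6.09%, 4.66%, 4.99%, 5.41% and 7.02%, so neither changed steadily. The median difference was 0.01 to 0.03 in every group. From shortest to longest, the median pair difference went from -0.01 to -0.15 in number 2 and from -0.08 to 0.08 in number 4. The mean vehicle level went from 7.34 to 6.34, and length was not separated from level.

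The same drug in the parent line HB4a gave more calls, 2264 of 5629 genes (40.2%, with 27.8% up and 12.4% down), on arrays that are not shared with C5.2. Of the 408 rises of C5.2, 364 were tested there and 354 of them had the same sign (97.3%), with 313 called up, and of 272 tested falls 253 had the same sign (93%), with 200 called down. Genes not called in C5.2 had the same sign in 72.6%. A test of the difference between the responses, with the pairs of each line as blocks, called 108 of 6486 genes (1.67%), 82 with a lower response in C5.2 (1.26%) and 26 with a higher one (0.401%; 24.1% of calls were higher, against 46.4% of 153 calls after quantile normalization). That count was 1 without the pairing, 244 without number 2 (149 with a higher response in C5.2 and 95 with a lower one, so that the balance turned), and 58, 46 and 39 without number 3, 4 or 6. None of the 45 p53 list genes tested in C5.2 was among the 108. In simulated data this test recovered 48% of genes moved by 0.5 and 96% of those moved by 1, so it can miss modest differences. GDF15 rose by 2.77 in HB4a, CDKN1A by 1.75, MDM2 by 1.27 and TP53I3 by 2.13. The differences were 0.15 ± 0.21, 0.40 ± 0.21, 0.25 ± 0.24 and -0.36 ± 0.18.

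AKR1B10 rose by 2.44 in HB4a against 0.63 in C5.2 (difference -1.82 ± 0.24, adjusted p = 0.000352), and ACTA2, smooth muscle actin, by 1.93 against 0.44 (-1.49 ± 0.20, adjusted p = 0.000352). ISG15, an interferon-induced ubiquitin-like protein, rose by 1.09 in HB4a against 0.28 in C5.2 (-0.81 ± 0.12, adjusted p = 0.00104). AKR1B10 was under 5 on every vehicle array of HB4a, while ACTA2 and ISG15 were over it on every array of both lines. The calls of these 3 genes held in every fit that left out 1 number, and none held without the pairing. MGARP, RTN1, FOXQ1 and LOX were low in 1 of the lines and entered the test mainly through the other line, so their levels are given as a description. MGARP, a mitochondrial protein, went from a mean of 2.78 to 5.02 in HB4a and was at 6.67 and 6.77 in C5.2, and it was the 1 gene called without the pairing. RTN1, a reticulon of the endoplasmic reticulum, went from 2.35 to 3.38 in HB4a, below the filter, and was at 5.94 and 5.89 in C5.2. FOXQ1, a forkhead factor, went from 5.72 to 3.97 in HB4a and LOX, lysyl oxidase, from 8.27 to 7.24, while in C5.2 both were low from the start, at 2.91 and 2.41 and at 2.28 and 2.09. The call for SUGCT (-1.01 ± 0.20) was lost without number 1. Among G2 and mitosis genes, whose median was -0.03 in HB4a over 30 tested, the responses of CCNB1, CENPA and KIF20A were called higher in C5.2.

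**Figure D5:**
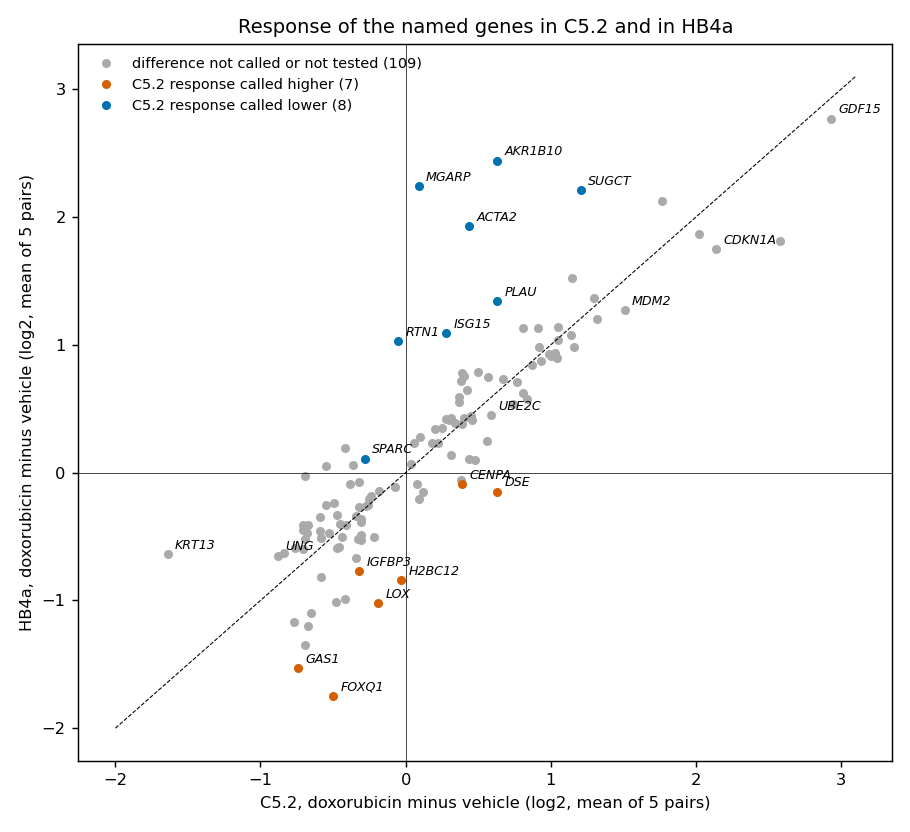
Mean difference of the 5 pairs between doxorubicin and vehicle (log2) for 124 named genes in C5.2 (x axis) and HB4a (y axis), with the dashed line at equal responses. Blue marks 8 genes whose response was called lower in C5.2, orange 7 called higher, and grey the other 109. GDF15, CDKN1A and MDM2 lie near the line, and MGARP, AKR1B10 and ACTA2 lie far above it.

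Doxorubicin was also added on top of 20 nM rapamycin in C5.2, again on other arrays, and there 2073 of 5843 genes were called (35.5%, with 17.3% up and 18.2% down), or 278 without the pairing. Of the rises described above 381 of 383 tested had the same sign (99.5%), with 352 called up, and of the falls 320 of 322 had it (99.4%), with 273 called down, against 74.5% of genes not called. GDF15 rose by 3.12 ± 0.08 there, CDKN1A by 2.20 ± 0.07, UBE2C by 0.71 ± 0.04 and MCM6 fell by 0.79 ± 0.06. COX3 was at -0.10 ± 0.10 and was not called there, against its fall of 0.71 without rapamycin. A test of whether rapamycin changed the doxorubicin effect called 0 of 6292 genes in limma, with 376 at an unadjusted p under 0.05, and the COX3 difference of 0.61 had an adjusted p of 0.335. With array weights that count was 58. In the G2 and mitosis list 28 members were called up there, in place of 13. Of the origin licensing and replication fork list 7 were called up and 10 down there, with a median of 0.06.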

How the data were processed

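RNA from 10 C5.2 cultures, 5 with vehicle and 5 with 30 nM doxorubicin, was measured on Affymetrix 3′ arrays. The authors deposited RMA values (per the submitters' processing notes, which name no version), taken here as log2 from their range of -0.60 to 13.08; RMA normalizes arrays to one distribution, so a shift of all RNA together would not be seen. Of 54675 probe sets, 41091 had 1 symbol, 1801 several and 11777 were unnamed here. The probe set with the highest mean stood for each of 19775 genes.

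Genes over 5 on at least 5 of the 10 arrays were tested with limma 3.58.1 (R 4.3.3; trended eBayes, 2-sided, experiment number as a block), with Benjamini-Hochberg adjustment over all 5910. Tallies were made in pandas 2.3.3 (Python 3.11.15) and plots in matplotlib 3.10.9. Same-numbered arrays of both groups deviated together from their group means (correlations of 0.58 to 0.693, and 0.147 in number 4), each over 0.1, so the numbers were taken as pairs; the highest correlation with another number was -0.0388 to 0.419, and for number 4 it was 0.189, above that with its own. In simulated data of 5910 genes for this comparison, 75% of genes moved by 0.5 and 99% of those moved by 1 were recovered, with 9 false calls. Without the block 33% and 95% were called, counted in either direction. The simulated data were built with the numbers as pairs, so the gain from the block was set in advance. Each gene had the same noise on every array, so false calls on the real arrays may differ.

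Genes were named by rule: the 15 largest rises and falls with the same sign in all pairs, up to 4 called members of each list and direction, a fixed set of drug and p53 genes, and the 5 largest differences from HB4a in each direction. Other members of a list were named after their values were seen. The comparison and the gene lists were chosen with earlier results of these data known. Alternatives changed the block, the arrays fitted, the filter, the probe sets, the scaling, the variance model and the experiments included. The number of arrays limits the precision.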

Additional observations from a re-analysis of the deposited data

Results flagged for a closer look

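In 248 groups of 5 arrays, 19 had 1 array far from the other 4, where chance flags about 1 in 20 groups (12.4), and 13 of the 19 were arrays numbered 2. In doxorubicin number 2 these were PPM1D at 5.17, E2F7 at 4.73, TIGAR at 5.75, UBE2C at 10.87, KLF4 at 5.88, GCLM at 7.78, SPARC at 8.63 and DSE at 2.81. In vehicle number 2 they were E2F7 at 4.60, ABCG2 at 5.71, GINS2 at 7.81, H2AZ1 at 10.22 and PSMB8 at 5.92. Among the other arrays they were CES2 at 4.96, ERBB2 at 11.63 and MGARP at 7.08 in vehicle number 1, GART at 6.11 in vehicle number 3, COL6A1 at 8.25 in doxorubicin number 3 and PSMB8 at 5.61 in doxorubicin number 4.

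For 15 named genes the response in C5.2 minus that in HB4a passed the test of the difference. It was below 0 for MGARP (-2.14), AKR1B10 (-1.82), ACTA2 (-1.49), RTN1 (-1.08), SUGCT (-1.01), ISG15 (-0.81), PLAU (-0.71) and SPARC (-0.40). It was above 0 for FOXQ1 (1.25), LOX (0.83), H2BC12 (0.81), GAS1 (0.79), DSE (0.78), CENPA (0.48) and IGFBP3 (0.45). MGARP and RTN1 were low in HB4a and FOXQ1, LOX and DSE in C5.2, so these entered the test mainly through the other line. Histone genes share sequence, so the probe set of H2BC12 may read other members of its family.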

How the results depend on the processing

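None of the 108 named genes that were called reversed under any alternative. Changing the block, the filter or the variance trend, or adding the other C5.2 arrays, leaves the fitted difference of a gene as it was. Those alternatives therefore could not turn a sign, and only the scaling, the probe sets, the array weights and the experiments left out could. Of these 108, 59 kept their call whichever number was left out, and 34 kept it with no replicate block. The 741 calls became 70 with no block, 205 with all 20 C5.2 arrays and no block, 276 with a filter at 7, 442 with the mean of all probe sets, 3050 with array weights, and 291 to 1034 with 1 number left out. The 34 p53 list members became 19 with no block, 10 with a filter at 7, 20 with the mean of probe sets and 31 to 35 with 1 number left out. The 108 differences from HB4a became 1 with no block, 175 with no filter, 60 with a filter at 7, 463 with array weights and 39 to 244 with 1 number left out. For doxorubicin on top of rapamycin, 2073 became 278 with no block, 794 with a filter at 7, 1285 with the mean of probe sets and 1493 to 2098 with 1 number left out; the rapamycin interaction became 58 with array weights. The filter at 7 and the mean of probe sets test fewer genes; for the others the cause was not tested.

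Signs turned only in values that were not called. With 1 number left out, ABCC1 ranged from -0.06 to 0.12, ERBB2 from -0.01 to 0.14, TOP2A from -0.11 (without number 3; -0.01 without number 4) to 0.27, TOP1 from -0.02 to 0.15 and RTN1 from -0.13 to 0.01. ERBB2 was at -0.02 with the mean of probe sets and TOP1 at -0.10 with array weights. H2BC12, at -0.03 in C5.2, was at 0.16 with array weights and 0.04 without number 2. The GDF15 difference from HB4a was -0.01 with array weights, and ranged from -0.06 to 0.34 with 1 number left out (-0.01 without number 3).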

Other observations

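Genes that restrain mTORC1 or follow FOXO factors had 2 falls and no rise among 14 tested, with a median of -0.16. Of all genes tested, 5.63% fell. CITED2, a transcriptional coregulator, fell by 0.55 ± 0.09 and DDIT4, the mTORC1 inhibitor REDD1, by 0.31 ± 0.06, and neither was called without the pairing (adjusted p = 0.2 and 0.157). In the sterol list the falls beside SCD were INSIG1 (-0.49), MSMO1 (-0.36) and SQLE (-0.31), none called without the pairing. In the lysosome list GRN, progranulin, rose by 0.37 ± 0.07 and PSAP, prosaposin, by 0.20 ± 0.06. Of 44 other probe sets of the named genes that were called, 43 had the same sign as the one reported. Their sizes differed both ways. THBS1 was at -0.20 and -0.02 against -0.65 and SCD at -0.24 against -0.58, while GCLM was at -0.73 against -0.32 and MDM2 at 1.97 against 1.51.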
